A study of Mus musculus with 39 samples.

Results

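Brain RNA of mice sampled on day 7 after soman at 1/10 of the median lethal dose (LD50) was compared with brain RNA of mice given saline. The comparison takes the 3 libraries that the labels assign to that dose and day and the 3 saline libraries, 6 of the 39 libraries of the series. The study gave soman under the skin at 3 doses, of which 1/10 LD50 was the lowest, 1/5 LD50 the next and 1/2 LD50 the highest. Brains were sampled on days 1, 3, 7 and 14, with 3 biological replicates in each of 13 groups per the series' design text. The soman group is therefore 1/10 LD50 on day 7, and the saline group received no soman. The 1/5 and 1/2 LD50 groups of day 7 were used to set doses side by side. The labels give neither the strain, sex and age of the mice nor whether soman was given once or repeatedly, and they state no sampling day for the saline mice. The part of the brain is not stated either. All soman groups share this 1 saline group. Values are FPKM, which scale fragments by transcript length and library total, and the depth behind them is unknown.

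Soman is an organophosphorus nerve agent that binds the active-site serine of acetylcholinesterase, so that acetylcholine is no longer broken down at synapses. High doses cause seizures, and neurons that fire strongly switch on immediate early genes, whose transcripts appear within minutes and decay within hours. A dose well below the lethal range need not cause visible poisoning. Mitochondria hold a small circular genome of their own that encodes subunits of the respiratory chain, whereas most subunits of that chain come from nuclear genes.

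The 3 soman libraries were unlike one another. The 37 features of the mitochondrial genome made up 12.1%, 23.1% and 27.6% of the summed FPKM in soman replicates 1, 2 and 3, against 11.9%, 7.17% and 8.71% in saline replicates 1, 2 and 3. Soman replicate 1 thus lay beside saline replicate 1, and soman replicates 2 and 3 had a higher share than any of the other 37 libraries, which ran from 7.17% to 15.4%. Among 8649 nuclear genes with a mean of 5 FPKM or more in the soman group, 325 were over 2-fold lower and 23 over 2-fold higher in soman replicate 3 than in soman replicate 1, on the log2(FPKM + 1) scale. The same comparison gave 18 lower and 26 higher at 1/5 LD50, 29 lower and 37 higher at 1/2 LD50, and 11 lower and 12 higher in saline. In 312 of the 325 genes soman replicate 2 lay between the other soman libraries. These 325 genes included 31 cytosolic ribosomal protein genes and 24 nuclear genes of the respiratory chain, and their median transcript length was 1416 bases, against 3443 for all 8649. By a second measure, soman replicate 2 lay from 0.3 to 0.7 of the way between the other libraries of its group in 65.0% of the 469 genes of 5 FPKM or more in which those differed over 2-fold. For saline replicate 3 this share was 66.7% of 57 genes. These are 2 of 7 libraries that lay there more often than any of the 36 libraries outside their group did, and the median share was 17.5% for the libraries outside the 7. Whether these 7 are independent of the others in their group was not tested, and n, SE and p in all fits treat them as independent. What set soman replicates 2 and 3 apart from replicate 1 was not tested.

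**Figure D1:**
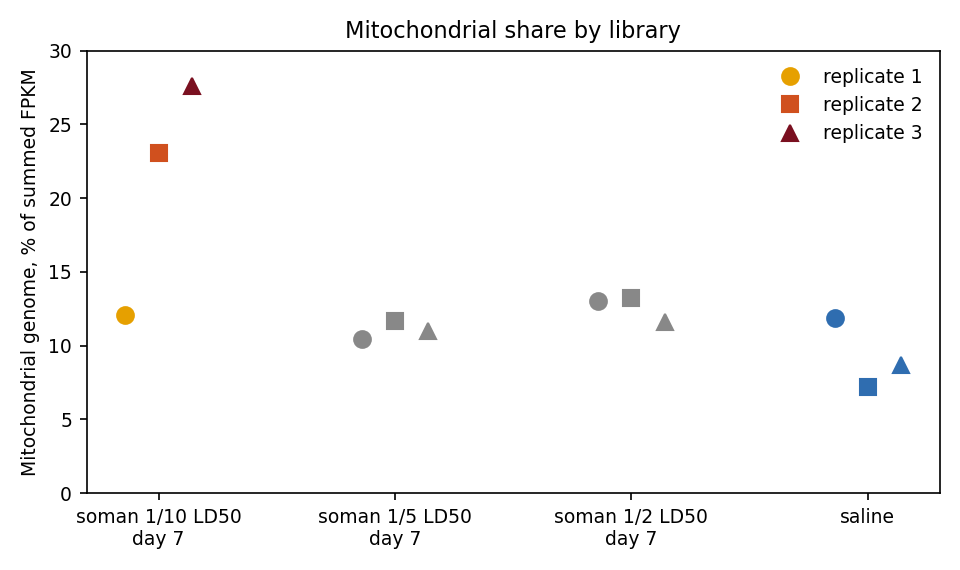
Share of the summed FPKM that belongs to the mitochondrial genome (y axis, percent) in each library of 4 groups (x axis, 3 libraries each, symbols by replicate number). Soman replicates 2 and 3 at 1/10 LD50 lie at 23.1% and 27.6%, above all other libraries shown.

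Every library carried the markers of brain. Snap25, a neuronal vesicle fusion protein, had 666, 828 and 1029.7 FPKM in the soman libraries and 664, 639.7 and 719 FPKM in the saline libraries. Slc1a2, the glutamate transporter of astrocytes, had 148, 158 and 145 FPKM in soman and 161, 148 and 159 FPKM in saline. Mbp, a myelin protein, had 1705, 2043 and 1562 FPKM in soman and 1362, 1443 and 1434 FPKM in saline. Slc1a2 and Mbp did not pass the test (adjusted p = 0.71 and 0.25).

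Of 14701 genes tested, 2866 passed an adjusted p of 0.05 with limma in 1 model of all 13 groups. Soman brains had 622 genes higher, which is 4.23% of the genes tested, and 2244 genes lower, which is 15.3%. With the libraries rescaled by median ratios, the split was 1182 higher and 1170 lower, and with the mitochondrial genome left out and the nuclear sum rescaled it was 920 higher and 1508 lower. Most changes were small. In the model of all groups 33 genes rose and 16 fell by more than 2-fold, and the median size of a called change was 0.35 on the log2 scale. All 3 soman libraries lay above all 3 saline libraries in 1134 genes (7.71%) and below them in 2675 genes (18.2%). Median transcript length was 2302 bases among rises and 4233 bases among falls, against 3278 bases over all genes tested.

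The counts rested on soman replicates 2 and 3. With soman replicate 1 as the lone soman library, 1 gene rose and 3 fell. Pno1 did not pass with all libraries (adjusted p = 0.95). The 4 were Pno1 (rose) and Lig4, 5830417I10Rik and 1500004A13Rik (fell), named here after their values were seen. The count was 5304 without soman replicate 1, 1732 without soman replicate 2 and 668 without soman replicate 3. It was 1977, 1940 and 1506 without saline replicate 1, 2 or 3. With the mitochondrial share as a covariate 1 gene passed, Rfx3, which encodes a transcription factor of ciliated cells. With the 6 libraries alone in the model 3 genes rose and 2 fell. In all 6 fits that left out 1 of the 6 libraries, 524 genes passed, which is 3.56% of those tested. Of these, 109 rose and 415 fell.

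**Figure D2:**
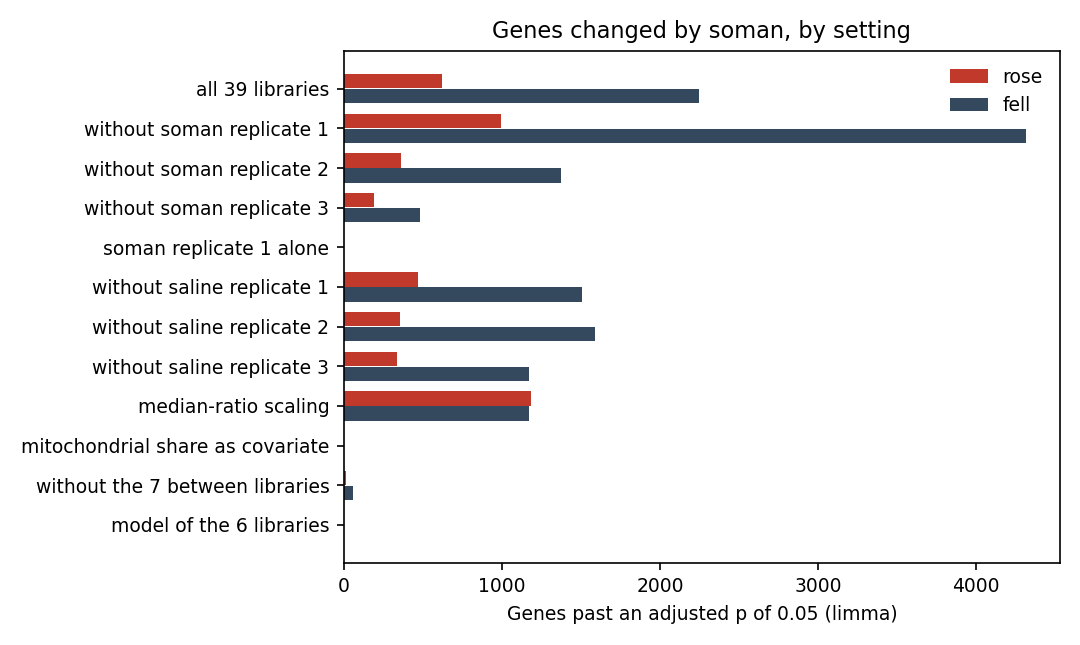
Number of genes past an adjusted p of 0.05 (x axis) that rose (upper bar) or fell (lower bar) in soman brains relative to saline, for 12 settings of the analysis (y axis). The first pair of bars is the fit of all 39 libraries, with 622 rises and 2244 falls, and the bars nearly vanish when soman replicate 1 stands alone, when the mitochondrial share is a covariate or when the 6 libraries are modelled by themselves.

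Immediate early genes were lower in soman brains. Of 33 tested, 13 fell and 0 rose, with a median log2 change of -0.31, against -0.09 over all genes tested. In 15 of the 33 all soman libraries lay below all saline libraries, and 9 passed in each of the 6 fits without 1 library. Over all genes tested 15.3% fell, 18.2% lay below all saline libraries and 3.56% passed in each of the 6 fits. The median of the list was -0.13, -0.52 and -0.32 in soman replicates 1, 2 and 3, so replicate 2 was furthest from saline and replicate 1 nearest. No member passed with soman replicate 1 alone or with the mitochondrial share as a covariate, and 1 passed without the 7 libraries that lie between the others of their group.

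Arc had the largest fall of the named nuclear genes. It encodes a protein that removes AMPA receptors from active synapses, and its mRNA is carried into dendrites. Arc had 16.003, 8.91 and 10.99 FPKM in the soman libraries, against 43.1, 38.97 and 37.6 FPKM in the saline libraries. The highest soman library had less than every saline library, and the groups did not overlap (log2 change -1.69 ± 0.22 (SE), adjusted p = 0.00013). The fall of Arc passed in all 6 fits without 1 library, with a highest adjusted p of 0.0022. With soman replicate 1 alone the change of Arc was -1.26.

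Transcription factors of this class fell together with Arc. Nr4a1, a nuclear orphan receptor, had 12.8, 6.64 and 11.8 FPKM in soman libraries, against 21.99, 21.8 and 20.6 FPKM in saline libraries (log2 change -1.02 ± 0.23 (SE), adjusted p = 0.0035). Replicate 2 was the lowest of the soman libraries, and none reached the saline range. Fos, a subunit of the AP-1 factor, had 8.37, 4.21 and 4.89 FPKM in soman libraries and 12.7, 11.2 and 10.4 FPKM in saline libraries (log2 change -0.91 ± 0.23 (SE), adjusted p = 0.0087). The call of Fos was lost without soman replicate 2 (adjusted p = 0.057) or without soman replicate 3 (adjusted p = 0.066). Junb, a partner of Fos, had 9.64, 4.92 and 5.63 FPKM in soman and 11.5, 12.8 and 11.5 FPKM in saline, with no overlap (log2 change -0.79 ± 0.18 (SE), adjusted p = 0.0040). Replicate 1 again lay closest to saline. Per1, which is both an immediate early gene and a clock repressor, had 12.7, 9.71 and 12.2 FPKM in soman and 16.8, 20.6 and 17.9 FPKM in saline (log2 change -0.64 ± 0.13 (SE), adjusted p = 0.0017).

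Feedback regulators of the kinase signal that drives these genes fell as well. Dusp6, a phosphatase that inactivates ERK, had 9.51, 7.405 and 8.46 FPKM in soman libraries and 12.7, 13.6 and 13.96 FPKM in saline libraries (log2 change -0.61 ± 0.11 (SE), adjusted p = 0.00095). Dusp1, a related phosphatase, had 7.68, 6.91 and 9.62 FPKM in soman and 14.9, 13.1 and 12.4 FPKM in saline (log2 change -0.68 ± 0.17 (SE), adjusted p = 0.0064). Dusp4 had 3.14, 2.13 and 2.16 FPKM in soman and 3.74, 4.24 and 3.999 FPKM in saline (log2 change -0.53 ± 0.11 (SE), adjusted p = 0.0017). In each of the 3 phosphatase genes the soman libraries lay below all saline libraries. Ier5, an activator of heat shock factor 1, had 8.56, 4.46 and 3.96 FPKM in soman, against 9.77, 11.5 and 11.5 FPKM in saline (log2 change -0.899 ± 0.16 (SE), adjusted p = 0.00066), and Trib1, a pseudokinase, also fell (log2 change -0.54 ± 0.12 (SE), adjusted p = 0.0036).

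The remaining calls of the list were less stable. Fosl2 (adjusted p = 0.017), Ier2 (adjusted p = 0.027) and Nr4a3 (adjusted p = 0.031) fell with all libraries. Without soman replicate 2 the adjusted p was 0.079 for Fosl2, 0.11 for Ier2 and 0.070 for Nr4a3. When soman replicate 3 was left out it was 0.18 for Fosl2, 0.090 for Ier2 and 0.11 for Nr4a3. Saline replicates mattered too, with 0.11 for Ier2 and 0.089 for Nr4a3 without saline replicate 1, and 0.066, 0.051 and 0.090 for Fosl2, Ier2 and Nr4a3 without saline replicate 2. Other well-known members did not pass. Egr1, a zinc finger factor, had 28.7, 20.7 and 41.3 FPKM in soman libraries and 40.1, 40.96 and 37.9 FPKM in saline libraries, and its highest soman library was above all saline libraries. Npas4, a factor that responds to calcium influx, had 3.01, 1.53 and 3.81 FPKM in soman and 4.05, 3.57 and 4.23 FPKM in saline. Bdnf, a neuronal growth factor, had 3.08, 2.64 and 2.86 FPKM in soman and 3.08, 3.02 and 3.92 FPKM in saline.

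**Figure D3:**
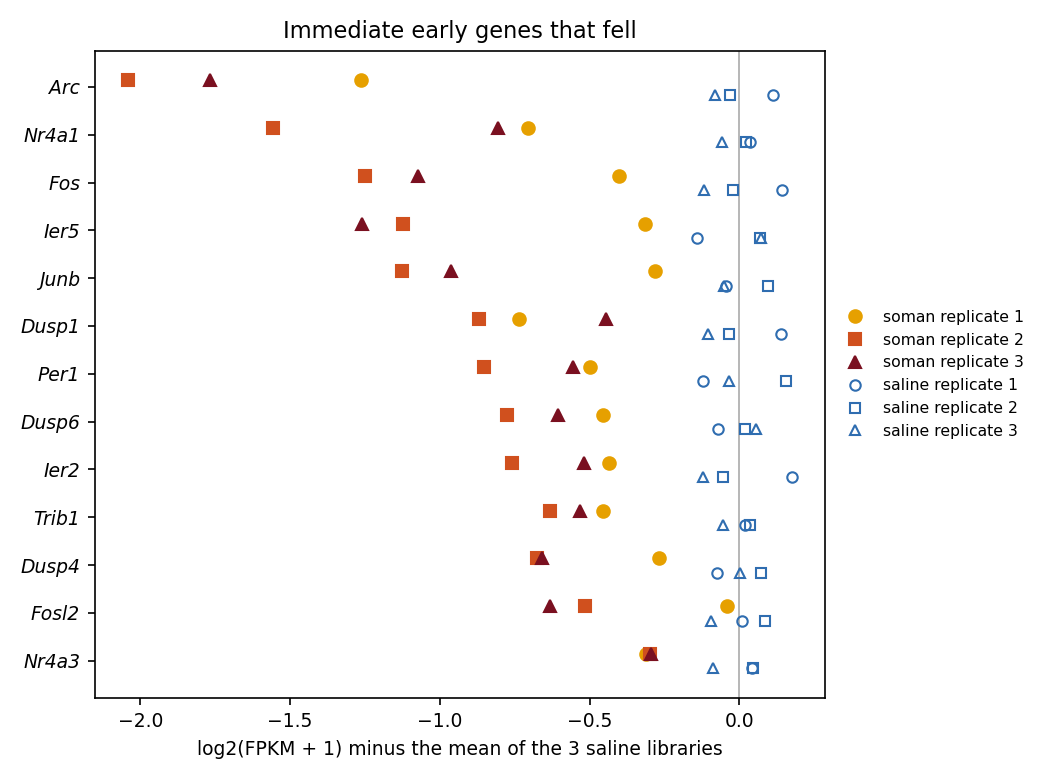
Immediate early genes that fell (y axis), each library shown as its log2(FPKM + 1) minus the mean of the 3 saline libraries (x axis), with filled symbols for soman and open symbols for saline. Arc is lowest, with all soman symbols left of -1, and the filled circle of soman replicate 1 is the closest to saline in most genes.

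Some immediate early genes are known to respond to calcium and cyclic AMP in part through the CRE motif, bound by CREB. Promoters of this list were therefore searched for the motif. RefSeq promoters of the build GRCm38.p6, from 250 bases before to 50 after the start of a gene, were at hand for 25 of the 33 genes and for 9 of the 13 that fell. The short form of the motif, TGACG on either strand, was found in 6 of the 9, in 16 of the 25 and in 5681 of 27025 promoters of the table (66.7%, 64% and 21%). The full palindrome TGACGTCA, which holds the short form on both strands, was found in 1 of the 9, in 2 of the 25 and in 507 of the 27025 (11.1%, 8% and 1.88%). Promoters of Fos (chr12:85473640-85473939, plus strand), Nr4a1 (chr15:101266596-101266895, plus strand) and Dusp1 (chr17:26508423-26508722, minus strand) are printed 5′ to 3′ along the gene, with each match to the short form on either strand in capitals.
Fos: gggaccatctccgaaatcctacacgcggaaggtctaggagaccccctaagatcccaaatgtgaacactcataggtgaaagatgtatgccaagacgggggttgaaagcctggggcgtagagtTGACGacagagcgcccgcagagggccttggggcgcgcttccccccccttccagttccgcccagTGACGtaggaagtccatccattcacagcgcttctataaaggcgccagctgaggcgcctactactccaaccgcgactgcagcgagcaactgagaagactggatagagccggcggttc
Nr4a1: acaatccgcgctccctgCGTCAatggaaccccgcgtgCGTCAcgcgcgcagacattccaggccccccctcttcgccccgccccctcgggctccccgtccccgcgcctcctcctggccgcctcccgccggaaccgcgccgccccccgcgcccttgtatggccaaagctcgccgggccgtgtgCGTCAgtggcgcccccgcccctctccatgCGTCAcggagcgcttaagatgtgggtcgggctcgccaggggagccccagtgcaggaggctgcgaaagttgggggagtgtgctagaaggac
Dusp1: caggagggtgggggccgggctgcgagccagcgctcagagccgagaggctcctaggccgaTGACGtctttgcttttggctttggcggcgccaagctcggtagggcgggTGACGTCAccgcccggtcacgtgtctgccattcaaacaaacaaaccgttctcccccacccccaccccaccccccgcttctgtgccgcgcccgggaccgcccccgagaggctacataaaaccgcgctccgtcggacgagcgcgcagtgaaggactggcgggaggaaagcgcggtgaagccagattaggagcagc
Each printed promoter holds a match, whereas those of Dusp6, Fosl2 and Ier5, which also fell, hold none. A match describes the letters of the promoter and not binding by CREB in these brains.

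Immediate early genes were also lower at 1/10 LD50 than at the other doses of the same day. These comparisons use no saline library, but they share the 3 soman libraries at 1/10 LD50 with the comparison against saline. The list median was -0.58 against 1/5 LD50 and -0.54 against 1/2 LD50, where it was -0.31 against saline. At both higher doses the means of Arc and Nr4a1 were above every saline library, so these differences do not measure a fall from saline. At 1/10 LD50, 27 of the 33 were lower than at 1/5 LD50 and 0 higher, where 21.8% of all genes tested were lower and 5.74% higher. Against 1/2 LD50, 23 were lower and 0 higher, where 13.6% of all genes tested were lower and 4.11% higher. Arc averaged 11.97 ± 3.64 FPKM at 1/10 LD50, against 52.9 ± 9.34 FPKM at 1/5 LD50 and 52.6 ± 9.31 FPKM at 1/2 LD50 (SD, n = 3 each). The difference of Arc was -2.08 ± 0.22 (SE) from 1/5 LD50 and -2.07 ± 0.22 from 1/2 LD50, with limma adjusted p of 1.9e-06 and 4.1e-06. Both differences of Arc also passed with soman replicate 1 as the lone library of its group (adjusted p = 0.021 and 0.034) and with the mitochondrial share as a covariate (adjusted p = 0.00064 and 0.00027). Of the whole list, 1 member was lower than at 1/5 LD50 and 1 lower than at 1/2 LD50 with soman replicate 1 alone, and 10 and 13 were lower with the covariate. Without soman replicate 2 the counts of lower members were 20 against 1/5 LD50 and 15 against 1/2 LD50, and without soman replicate 3 they were 22 and 12. Without the 7 libraries that lie between others they were 17 and 9. With the compared groups alone in the model, 0 of the 33 were lower than at 1/5 LD50. Neither difference of Arc passed in that model (limma adjusted p = 0.13 against 1/5 LD50 and 0.069 against 1/2 LD50). Nr4a1 averaged 10.4 ± 3.302 FPKM at 1/10 LD50, against 29.7 ± 4.23 FPKM at 1/5 LD50 and 33.7 ± 3.87 FPKM at 1/2 LD50.

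Markers of meningeal fibroblasts, which lay down collagen in the coverings of the brain, were lower in soman brains. Of 23 tested, 11 fell and 1 rose, where 15.3% of all genes tested fell and 4.23% rose. The median log2 change of the markers was -0.39, against -0.09 over all genes tested. The median of the markers was -0.30, -0.51 and -0.44 in soman replicates 1, 2 and 3, so all 3 replicates lay on the same side of saline. The falls numbered 11 under median-ratio scaling, between 9 and 13 in the fits without 1 library, 2 without the 7 libraries that lie between others, and 0 with soman replicate 1 alone or with the covariate. In bulk tissue, fewer cells of a type and less RNA per cell cannot be told apart, and how much of the membranes was taken with each brain is not stated.

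Collagen genes were among the markers that fell. Col1a2, a chain of type I collagen, had 7.26, 5.51 and 4.59 FPKM in soman libraries, against 12.2, 10.6 and 11.3 FPKM in saline libraries (log2 change -0.88 ± 0.14 (SE), adjusted p = 0.00035). Col3a1, the chain of type III collagen, had 3.79, 2.44 and 2.35 FPKM in soman and 6.52, 5.44 and 5.75 FPKM in saline (log2 change -0.85 ± 0.13 (SE), adjusted p = 0.00026). The groups overlapped in neither gene, and soman replicate 1 held the highest soman value of both. Transporters of the arachnoid barrier moved with them. Slc6a20a, an amino acid transporter, had 6.81, 5.15 and 4.61 FPKM in soman and 11.8, 9.12 and 9.66 FPKM in saline (log2 change -0.79 ± 0.15 (SE), adjusted p = 0.0010). Slc6a13, which carries GABA and taurine, had 5.22, 2.83 and 2.81 FPKM in soman and 6.66, 6.07 and 6.21 FPKM in saline (log2 change -0.701 ± 0.13 (SE), adjusted p = 0.00090). Slc47a1, a drug and cation exporter, had 0.823, 0.363 and 1.62 FPKM in soman and 2.79, 2.18 and 2.72 FPKM in saline (log2 change -0.93 ± 0.17 (SE), adjusted p = 0.00086). All 3 transporters lay below the saline range in each soman library. Igf2, a growth factor made by the leptomeninges, had 14.5, 13.3 and 12.6 FPKM in soman and 23.8, 20.2 and 22.04 FPKM in saline (log2 change -0.67 ± 0.13 (SE), adjusted p = 0.0011). Mgp, Slc13a4 and Col1a1 fell too, with log2 changes of -0.67, -0.56 and -0.61, and passed in all 6 fits without 1 library. Aldh1a2, which makes retinoic acid, and Slc22a6, an organic anion transporter, fell with all libraries (adjusted p = 0.0030 and 0.0050) but not without soman replicate 3 (adjusted p = 0.054 and 0.057). Bgn, the proteoglycan biglycan, was the member that rose (log2 change 0.31 ± 0.11 (SE), adjusted p = 0.038), and it lost the call when soman replicate 2, soman replicate 3 or any saline replicate was left out (adjusted p from 0.061 to 0.12).

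**Figure D4:**
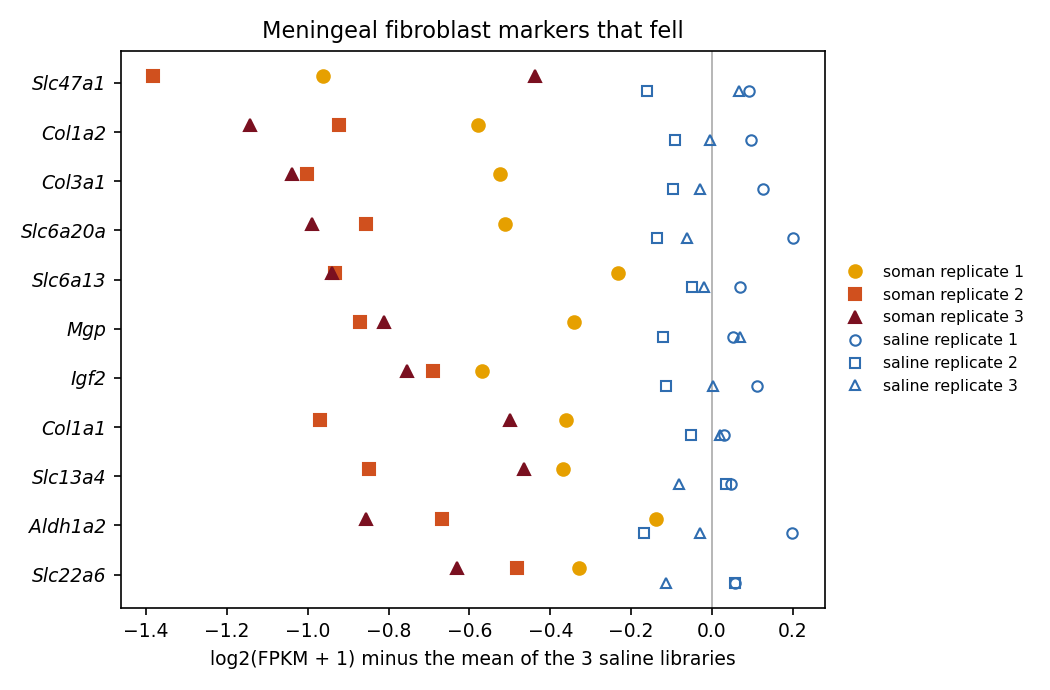
Meningeal fibroblast markers that fell (y axis), each library shown as its log2(FPKM + 1) minus the mean of the 3 saline libraries (x axis), with filled symbols for soman and open symbols for saline. Apart from Aldh1a2 in soman replicate 1, every soman symbol lies left of all saline symbols of its gene.

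Against the higher doses of day 7 few meningeal markers were lower at 1/10 LD50. At 1/10 LD50, 7 were higher and 1 was lower than at 1/5 LD50, and 7 were higher and 0 lower than at 1/2 LD50. Over all genes tested, 5.74% were higher and 21.8% lower than at 1/5 LD50, and 4.11% higher and 13.6% lower than at 1/2 LD50. Col3a1 averaged 2.86 ± 0.806 FPKM at 1/10 LD50 and 1.96 ± 0.278 FPKM at 1/5 LD50, and Slc13a4 averaged 3.62 ± 0.777 FPKM at 1/10 LD50 and 2.36 ± 0.743 FPKM at 1/5 LD50 (SD, n = 3 each). Col1a2 averaged 5.79 ± 1.36 FPKM at 1/10 LD50, 4.72 ± 1.17 FPKM at 1/5 LD50 and 5.79 ± 1.59 FPKM at 1/2 LD50, and did not differ beyond the threshold from either dose (adjusted p = 0.19 and 0.97). Dcn, the proteoglycan decorin, averaged 12.95 ± 2.85 FPKM at 1/10 LD50, 7.74 ± 1.59 FPKM at 1/5 LD50 and 8.76 ± 1.22 FPKM at 1/2 LD50, and was higher at 1/10 LD50 than at either (adjusted p = 0.00050 and 0.0077). The counts of higher markers without soman replicate 3 were 5 against 1/5 LD50 and 2 against 1/2 LD50. Without replicate 1 of 1/2 LD50 the count was 3, without replicate 2 of 1/2 LD50 it was 4, and without replicate 1 of 1/5 LD50 it was 4. With the compared groups alone in the model, the count against 1/5 LD50 was 0. In soman replicate 1 alone 0 of the 23 markers passed against either dose. Choroid plexus, which adjoins the same fluid space and secretes it, had 3 of 13 markers lower and 0 higher than saline. Of all genes tested, 15.3% were lower than saline. Folr1, a folate receptor, had 2.38, 0.721 and 1.46 FPKM in soman and 4.33, 2.903 and 3.298 FPKM in saline (log2 change -0.88 ± 0.27 (SE), adjusted p = 0.021), and F5 and Clic6 were the others. None of these 3 calls held without soman replicate 2, soman replicate 3 or saline replicate 1, and those of Folr1 and Clic6 did not hold without saline replicate 3 either (adjusted p from 0.052 to 0.13 for Folr1, from 0.050 to 0.13 for F5 and from 0.093 to 0.21 for Clic6).

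Transcripts of the mitochondrial genome rose. All 13 mitochondrial mRNAs and both ribosomal RNAs passed, with a median log2 change of 1.39 for the mRNAs. Because these transcripts make up the mitochondrial share, their rise restates the share given above, and 13 of 13 were also called with median-ratio scaling. ATP8, a subunit of ATP synthase, had 2444, 6156 and 7302 FPKM in soman libraries, against 2212, 1281 and 1475 FPKM in saline libraries (log2 change 1.57 ± 0.298 (SE), adjusted p = 0.0010). COX1, the catalytic subunit of complex IV and the most abundant of them, had 7939, 15022 and 15541 FPKM in soman and 7764, 4544 and 5598 FPKM in saline (log2 change 1.08 ± 0.21 (SE), adjusted p = 0.0011). For both, soman replicate 1 sat just above saline replicate 1, while soman replicates 2 and 3 were far higher. ND5, a subunit of complex I, had 1270.0, 3052 and 3961 FPKM in soman and 1307, 680.5 and 807 FPKM in saline, so that its soman replicate 1 was inside the saline range (log2 change 1.47 ± 0.28 (SE), adjusted p = 0.0010). The log2 changes of ND1, ND2, ND4, ND4L, CYTB, COX2, COX3 and ATP6 were 1.43, 1.39, 1.53, 1.504, 1.26, 1.23, 1.07 and 1.52. These 8 and the 3 above passed in all 6 fits without 1 library.

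The other 2 mRNAs and the ribosomal RNAs depended on single libraries. ND3 had 489, 719.7 and 544 FPKM in soman libraries and 439, 227 and 323 FPKM in saline libraries (log2 change 0.85 ± 0.22 (SE), adjusted p = 0.0074), and lost the call without soman replicate 2 (adjusted p = 0.052) or saline replicate 2 (adjusted p = 0.064). ND6, the one mRNA read from the other strand of the circle, had 606, 1275 and 2407 FPKM in soman and 477, 447 and 632 FPKM in saline (log2 change 1.26 ± 0.38 (SE), adjusted p = 0.019). ND6 lost the call without soman replicate 2, soman replicate 3, saline replicate 1 or saline replicate 2 (adjusted p = 0.056, 0.23, 0.056 and 0.065). The ribosomal RNAs mt-Rnr1 and mt-Rnr2 had log2 changes of 0.904 and 0.72 and both lost the call without soman replicate 3 (adjusted p = 0.098 and 0.17), mt-Rnr2 also without saline replicate 2 (adjusted p = 0.091). With soman replicate 1 alone the median of the mRNAs was 0.57. With the mitochondrial share as a covariate the median was 0.04. That share is summed from these same transcripts, so a small median was built into this fit and it cannot test their rise.

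Nuclear subunits of complex I fell more often than they rose, and the soman replicates split. Of 37 nuclear subunits of complex I, 11 fell and 0 rose, and of 34 subunits of complexes III to V, 6 fell and 1 rose. Over all genes tested 15.3% fell and 4.23% rose, so the counts of complexes III to V lie near those shares. In soman replicate 1 the median of complex I was 0.16 above saline and 26 of the 37 subunits were above all saline libraries. In soman replicate 3 the median was -0.60 and 32 of the 37 were below all saline libraries, with replicate 2 in between at -0.18. Over all genes tested, 33.7% were above all saline libraries in soman replicate 1 and 60.3% were below all of them in soman replicate 3. Ndufb2, an accessory subunit, had 45.6, 23.4 and 12.3 FPKM in soman libraries and 43.8, 34.7 and 39.7 FPKM in saline libraries (log2 change -0.703 ± 0.21 (SE), adjusted p = 0.020). Ndufv1, which binds NADH, had 87.8, 57.1 and 34.1 FPKM in soman and 76.7, 84.8 and 85.8 FPKM in saline (log2 change -0.56 ± 0.16 (SE), adjusted p = 0.013). In both genes soman replicate 1 was above all saline libraries and soman replicates 2 and 3 below them. No complex I subunit passed without soman replicate 3 (0 of 37), and the adjusted p was 0.34 for Ndufb2 and 0.23 for Ndufv1. Without saline replicate 3 it was 0.060 for Ndufb2 and 0.052 for Ndufv1, and 2 subunits fell. Ndufb2 also lost the call without soman replicate 2 or saline replicate 1 (adjusted p = 0.056 and 0.076). The count of complex I subunits that fell was 6 without soman replicate 2, 3 without saline replicate 1, 6 without saline replicate 2 and 24 without soman replicate 1. Under median-ratio scaling 9 subunits of complex I fell and 3 rose.

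One nuclear subunit passed in every fit without 1 library. Atp5e, the epsilon subunit of ATP synthase, had 103, 57.5 and 24.3 FPKM in soman libraries, against 137, 106 and 113 FPKM in saline libraries (log2 change -1.15 ± 0.24 (SE), adjusted p = 0.0020). Soman replicate 1 was close below the lowest saline library, and soman replicate 3 was the lowest of all. The falls of complexes III to V numbered 3 of 34 without soman replicate 2 and 1 of 34 without soman replicate 3. Uqcrb, of complex III, was the subunit that rose, with 107, 112 and 122 FPKM in soman and 94.3, 79.7 and 87.4 FPKM in saline (log2 change 0.38 ± 0.09 (SE), adjusted p = 0.0056), and it lost the call without soman replicate 3 (adjusted p = 0.056). Of all genes tested, 21.8% were lower at 1/10 than at 1/5 LD50 and 13.6% lower than at 1/2 LD50. Against 1/5 LD50, 31 of the 37 complex I subunits were lower at 1/10 LD50 and 0 higher, and against 1/2 LD50, 23 were lower and 0 higher. These counts were 22 and 2 without soman replicate 3, and without replicate 1 of 1/2 LD50 the second was 12. With the compared groups alone in the model, 0 of the 37 complex I subunits were lower than at 1/5 LD50. Soman replicate 1 alone gave no call among them against either dose (0 of 37), nor did the fit with the mitochondrial share as a covariate, and without the 7 libraries that lie between others the counts were 26 and 4.

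Cytosolic ribosomal protein genes lay mostly above saline in soman replicate 1 and mostly below it in soman replicate 3. Many have near-identical processed copies, so that their values are uncertain. Of 54 tested, 51 were above all saline libraries in soman replicate 1, whereas 43 were below all of them in soman replicate 3 (33.7% and 60.3% of all genes tested), with medians of 0.36 and -0.56, and -0.10 in soman replicate 2. With all libraries 5 rose and 2 fell, where 4.23% of all genes tested rose and 15.3% fell. Rpl24 had 203, 199.6 and 176 FPKM in soman and 163, 154 and 161 FPKM in saline (log2 change 0.27 ± 0.07 (SE), adjusted p = 0.0053), and Rpl27 had 98.9, 85.6 and 85.9 FPKM in soman and 76.1, 77.4 and 73.7 FPKM in saline (log2 change 0.25 ± 0.06 (SE), adjusted p = 0.0060). Both of these rises passed in all 6 fits without 1 library. Rps21 had 222, 110.4 and 45.6 FPKM in soman and 192, 165 and 185 FPKM in saline, so that its soman libraries lay on both sides of saline. It fell with all libraries (log2 change -0.79 ± 0.26 (SE), adjusted p = 0.035), and its adjusted p was 0.065 without soman replicate 2, 0.54 without soman replicate 3, and 0.093, 0.055 and 0.093 without saline replicates 1, 2 and 3. Without soman replicate 1, 28 ribosomal protein genes fell and 4 rose, and without soman replicate 3, 7 rose and 0 fell. At 1/10 LD50, 46 of the 54 were lower than at 1/5 LD50 and 33 lower than at 1/2 LD50, and these counts were 34 and 1 without soman replicate 3, 0 and 0 with soman replicate 1 alone, 4 and 1 with the covariate, and 42 and 1 without the 7 libraries that lie between others. Without replicate 1 of 1/2 LD50 the second count was 12. With the compared groups alone in the model, 0 of the 54 were lower than at 1/5 LD50. The shares over all genes tested were 21.8% lower than at 1/5 LD50 and 13.6% lower than at 1/2 LD50 with all libraries.

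**Figure D5:**
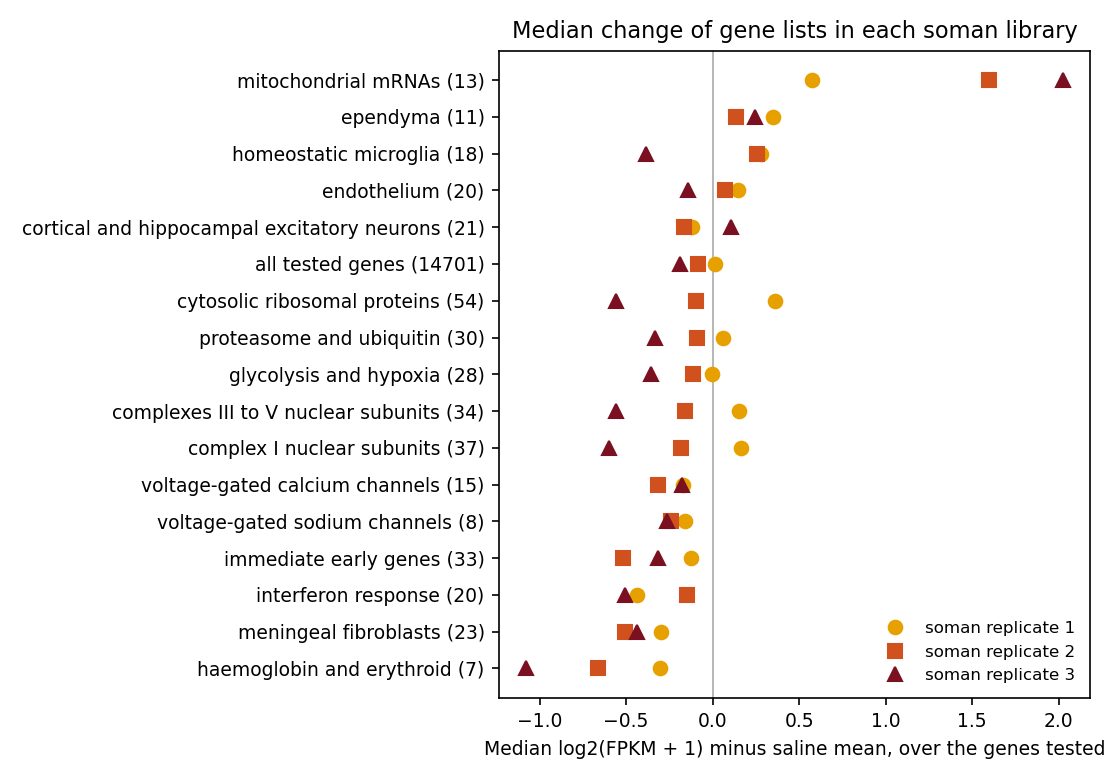
Median over the tested genes of each list (y axis, number of genes in brackets) of log2(FPKM + 1) minus the saline mean (x axis), drawn for each of the 3 soman libraries. Immediate early genes and meningeal markers lie left of 0 in all 3 replicates, whereas ribosomal protein and respiratory chain genes lie right of 0 in replicate 1 and left of 0 in replicates 2 and 3.

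Lists of protein turnover and energy supply held calls in shares to be read against the 15.3% of all genes tested that fell. Over all genes tested the median was 0.01, -0.09 and -0.19 in soman replicates 1, 2 and 3, so that the lowest median in soman replicate 3 is not particular to these lists. Of 30 proteasome and ubiquitin genes, 6 fell and 0 rose, and under median-ratio scaling 5 fell and 7 rose. Psma5, a core subunit, had 40.4, 28.6 and 23.6 FPKM in soman and 41.4, 40.6 and 44.04 FPKM in saline (log2 change -0.46 ± 0.098 (SE), adjusted p = 0.0022), and was the member that passed in all 6 fits without 1 library. Of 28 glycolysis and hypoxia genes 9 fell and 0 rose. Slc2a3, the neuronal glucose transporter, had 29.5, 23.9 and 17.5 FPKM in soman and 32.9, 33.5 and 34.8 FPKM in saline, with no overlap (log2 change -0.53 ± 0.099 (SE), adjusted p = 0.00095), and passed in all 6 fits. Pgk1, a glycolytic kinase, had 211, 154 and 107 FPKM in soman and 218, 215 and 216 FPKM in saline (log2 change -0.51 ± 0.12 (SE), adjusted p = 0.0047), and lost the call without soman replicate 3 (adjusted p = 0.074). Of 30 chaperones 7 fell and 1 rose, and 0 passed in either direction without soman replicate 3. Hspa5, the chaperone of the endoplasmic reticulum, had 149, 136 and 99.3 FPKM in soman and 175, 168 and 181 FPKM in saline (log2 change -0.46 ± 0.13 (SE), adjusted p = 0.012), with an adjusted p of 0.16 without soman replicate 3. The chaperones differed in opposite directions from the higher doses, with 1 of 30 higher and 11 lower at 1/10 than at 1/5 LD50 (median -0.21), and 10 higher and 1 lower at 1/10 than at 1/2 LD50 (median 0.20). Without soman replicate 3 the first pair was 0 and 2, without soman replicate 2 the second was 6 and 1, and with soman replicate 1 alone the pairs were 0 and 0, and 1 and 0. Of all genes tested, 5.74% were higher and 21.8% lower at 1/10 than at 1/5 LD50. Against 1/2 LD50, 4.11% were higher and 13.6% lower. The counts without soman replicate 3 were 1 of 30 for the proteasome list and 1 of 28 for glycolysis. Saline libraries moved them too, with 3 of 30 proteasome genes lower without saline replicate 2 or 3, 5 of 28 glycolysis genes without saline replicate 1, and 3 of 30 chaperones without saline replicate 3. Of 20 genes of cholesterol synthesis 4 fell and 0 rose. Of 22 genes of the NRF2 antioxidant response 3 fell and 1 rose. Sod2, the superoxide dismutase of mitochondria, had 32.5, 28.5 and 26.2 FPKM in soman and 37.1, 36.8 and 39.9 FPKM in saline (log2 change -0.38 ± 0.07 (SE), adjusted p = 0.00095), and Gstm1, a glutathione transferase, rose with 109, 123 and 109 FPKM in soman and 93.3, 76.6 and 76.7 FPKM in saline (log2 change 0.47 ± 0.103 (SE), adjusted p = 0.0031).

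Several ion channel genes of neurons were lower. Of 8 voltage-gated sodium channel genes 3 fell and 0 rose, where 15.3% of all genes tested fell and 4.23% rose. The list median was -0.16, -0.24 and -0.26 in soman replicates 1, 2 and 3. Scn1a, the main channel of fast-spiking interneurons, had 18.1, 18.2 and 14.6 FPKM in soman libraries, against 25.2, 25.9 and 27.4 FPKM in saline libraries (log2 change -0.601 ± 0.102 (SE), adjusted p = 0.00056). Scn2a, a channel of excitatory axons, had 28.2, 28.6 and 31.3 FPKM in soman and 37.2, 40.6 and 41.7 FPKM in saline (log2 change -0.42 ± 0.09 (SE), adjusted p = 0.0025). Scn2b, a beta subunit, had 40.8, 38.8 and 31.8 FPKM in soman and 51.1, 49.1 and 54.6 FPKM in saline (log2 change -0.47 ± 0.08 (SE), adjusted p = 0.00071). In all 3 genes every soman library was below every saline library, and each passed in all 6 fits without 1 library and under median-ratio scaling. None passed with soman replicate 1 alone, whose changes were -0.51 for Scn1a, -0.48 for Scn2a and -0.33 for Scn2b. Scn1a averaged 16.97 ± 2.03 FPKM at 1/10 LD50, 14.2 ± 0.432 FPKM at 1/5 LD50 and 17.4 ± 3.23 FPKM at 1/2 LD50 (SD, n = 3 each), and the doses did not differ beyond the threshold (adjusted p = 0.079 and 0.90).

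Of 15 voltage-gated calcium channel genes 6 fell and 0 rose, and of 33 potassium channel genes 6 fell and 0 rose, the last a share near the 15.3% of all genes tested that fell. Under median-ratio scaling 3 calcium channel genes fell, and 3 potassium channel genes fell and 1 rose. Cacna1i, a T-type channel, had 9.86, 7.68 and 6.73 FPKM in soman and 12.3, 12.8 and 12.3 FPKM in saline (log2 change -0.58 ± 0.11 (SE), adjusted p = 0.0011). Cacna1c, the L-type channel of neurons, had 8.09, 7.28 and 7.08 FPKM in soman and 8.93, 10.8 and 9.396 FPKM in saline (log2 change -0.34 ± 0.07 (SE), adjusted p = 0.0017). Kcnh1 was the potassium channel that passed in all 6 fits without 1 library, with 6.796, 5.56 and 6.21 FPKM in soman and 8.58, 9.52 and 9.32 FPKM in saline (log2 change -0.499 ± 0.12 (SE), adjusted p = 0.0065). Cacna1i and Cacna1c also passed in all 6, and the groups did not overlap in any of these 3 genes. The falls without soman replicate 3 numbered 3 of 15 for calcium and 1 of 33 for potassium channels, and without soman replicate 2 they numbered 3 of 15 and 3 of 33. Potassium channel falls also numbered 3 without saline replicate 2 and 3 without saline replicate 3. Kcna2, a channel of the axon, fell with all libraries (log2 change -0.37 ± 0.096 (SE), adjusted p = 0.0086) and had an adjusted p of 0.063 without soman replicate 3.

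Few receptors of fast transmission passed, where 15.3% of all genes tested fell and 4.23% rose. Of 22 glutamate receptor genes 2 fell, Grik3 and Grin2a, and of 20 genes of GABA signalling 2 fell, among them Gad1. Grik3, a kainate receptor, had 8.09, 7.49 and 7.55 FPKM in soman and 9.402, 11.8 and 10.99 FPKM in saline (log2 change -0.43 ± 0.097 (SE), adjusted p = 0.0039) and passed in all 6 fits without 1 library. Gad1, which makes GABA, had 129, 98.2 and 71.7 FPKM in soman and 116, 132 and 128 FPKM in saline, with soman replicate 1 inside the saline range. Grin2a lost the call without soman replicate 2 or saline replicate 3 (adjusted p = 0.063 and 0.062). Gad1 lost it without soman replicate 2, soman replicate 3, saline replicate 2 or saline replicate 3 (adjusted p = 0.070, 0.43, 0.11 and 0.097). Of 24 genes of the synaptic vesicle cycle 5 fell and 3 rose, and under median-ratio scaling 2 fell and 3 rose. Sv2a, a vesicle glycoprotein, had 115, 93.003 and 66.5 FPKM in soman and 127, 134 and 133 FPKM in saline (log2 change -0.55 ± 0.11 (SE), adjusted p = 0.0012). Bsn, the active zone scaffold bassoon, had 19.7, 16.7 and 17.8 FPKM in soman and 24.96, 25.3 and 23.9 FPKM in saline (log2 change -0.43 ± 0.103 (SE), adjusted p = 0.0053). Sv2b fell by a similar amount (log2 change -0.47 ± 0.12 (SE), adjusted p = 0.0089), and these 3 passed in all 6 fits. Rims2, Rab3a and Snap25 were the members that rose. Each lost the call without soman replicate 2, soman replicate 3, saline replicate 1 or saline replicate 2, and Rims2 and Rab3a also without saline replicate 3 (adjusted p from 0.072 to 0.36 for Snap25, from 0.060 to 0.29 for Rims2 and from 0.067 to 0.21 for Rab3a).

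The cholinesterases did not pass the test. Ache, the gene of the enzyme that soman inhibits, had 33.6, 30.8 and 25.1 FPKM in soman libraries and 34.9, 31.5 and 30.2 FPKM in saline libraries (log2 change -0.12 ± 0.13 (SE), adjusted p = 0.57). Bche, the related butyrylcholinesterase, had 1.08, 1.34 and 0.995 FPKM in soman and 1.04, 0.807 and 0.926 FPKM in saline (log2 change 0.15 ± 0.13 (SE), adjusted p = 0.42). Chat, which makes acetylcholine, had 2.33, 2.52 and 1.11 FPKM in soman and 1.56, 1.87 and 2.16 FPKM in saline (log2 change 0.03 ± 0.17 (SE), adjusted p = 0.92). The groups overlapped in all 3 genes. Of 15 cholinergic genes 1 fell and 2 rose, where 15.3% of all genes tested fell and 4.23% rose. Chrna7, the alpha 7 nicotinic receptor, had 3.76, 4.71 and 3.502 FPKM in soman libraries, against 6.15, 6.87 and 6.06 FPKM in saline libraries, and was below the saline range in each soman library (log2 change -0.57 ± 0.104 (SE), adjusted p = 0.00086). The fall of Chrna7 passed in all 6 fits without 1 library, and replicate 1 alone had a change of -0.63. Prima1, which anchors acetylcholinesterase in the membrane of neurons, had 4.12, 5.13 and 4.65 FPKM in soman and 3.81, 3.297 and 3.21 FPKM in saline (log2 change 0.34 ± 0.103 (SE), adjusted p = 0.020). Chrna3, another nicotinic subunit, had 1.01, 1.16 and 0.899 FPKM in soman and 0.572, 0.606 and 0.622 FPKM in saline (log2 change 0.34 ± 0.11 (SE), adjusted p = 0.035). The rise of Prima1 was lost without soman replicates 2 or 3 or saline replicates 2 or 3 (adjusted p = 0.097, 0.088, 0.063 and 0.085), and that of Chrna3 without soman replicates 2 or 3 or any saline replicate (adjusted p = 0.13, 0.079, 0.088, 0.074 and 0.079).

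Other serine hydrolases, a class that organophosphates can also bind, had 5 of 22 members lower and 0 higher. Of all genes tested, 15.3% were lower. The list median was -0.14, against -0.09 over all genes tested, and under median-ratio scaling 3 of the 22 fell. Abhd6, which degrades the endocannabinoid 2-arachidonoylglycerol, had 15.3, 11.2 and 9.77 FPKM in soman libraries, against 18.6, 19.1 and 18.05 FPKM in saline libraries (log2 change -0.603 ± 0.104 (SE), adjusted p = 0.00065). It passed in all 6 fits without 1 library and was lower than at 1/5 LD50 and 1/2 LD50 as well (log2 differences -0.59 and -0.44, adjusted p = 0.00038 and 0.0063). Fasn, the fatty acid synthase, had 45.7, 37.1 and 32.1 FPKM in soman and 51.96, 50.3 and 49.2 FPKM in saline (log2 change -0.404 ± 0.099 (SE), adjusted p = 0.0063), with an adjusted p of 0.098 without soman replicate 3. The falls of this list numbered 1 of 22 without soman replicate 3, 3 without saline replicate 1 or 2, and 2 without saline replicate 3.

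Among glia, microglial receptors rose. Of 18 genes of resting microglia 3 rose and 0 fell, and 0 of 10 genes of activated microglia passed. The shares over all genes tested were 4.23% risen and 15.3% fallen. P2ry12, the ADP receptor that directs microglial processes, had 11.6, 18.3 and 14.6 FPKM in soman libraries, against 10.4, 6.96 and 8.32 FPKM in saline libraries (log2 change 0.73 ± 0.16 (SE), adjusted p = 0.0035). P2ry13, its neighbour in the genome and also an ADP receptor, had 3.84, 4.72 and 3.94 FPKM in soman and 2.47, 2.07 and 2.64 FPKM in saline (log2 change 0.61 ± 0.11 (SE), adjusted p = 0.00074). Both rises passed in all 6 fits without 1 library, with no overlap between the groups. Selplg also rose (log2 change 0.48 ± 0.16 (SE), adjusted p = 0.036), but lost the call without soman replicate 1, 2 or 3 (adjusted p = 0.052, 0.087 and 0.098) and without saline replicate 2 or 3 (adjusted p = 0.16 and 0.16). The medians of the list were 0.28, 0.26 and -0.39 in soman replicates 1, 2 and 3, so the rise of these receptors was not shared by the list. Cx3cr1, the fractalkine receptor of the same cells, had 8.75, 9.31 and 6.54 FPKM in soman and 8.298, 6.01 and 6.63 FPKM in saline and did not pass (adjusted p = 0.30).

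Myelin and astrocyte genes moved little. The counts below stand beside 4.23% of all genes tested that rose and 15.3% that fell. Opalin, a protein of mature oligodendrocytes, had 10.6, 13.3 and 11.6 FPKM in soman libraries, against 6.76, 7.82 and 7.26 FPKM in saline libraries (log2 change 0.63 ± 0.13 (SE), adjusted p = 0.0024) and passed in all 6 fits without 1 library. It was the myelin gene that rose, of 20 tested, and Cnp was the one that fell. Of 16 astrocyte genes 2 rose, Sox9 and Agt, and 0 fell, and Gfap, the filament protein of reactive astrocytes, had 77.2, 82.5 and 52.9 FPKM in soman and 75.4, 77.2 and 73.3 FPKM in saline (adjusted p = 0.73). Of 13 reactive astrocyte genes 1 fell and 0 rose. Of 20 endothelial genes 3 rose, Pecam1, Cdh5 and Eng, and 1 fell, Vwf. Leaving out soman replicate 3, none of these endothelial genes passed (adjusted p = 0.17 for Pecam1). Emcn, a sialomucin of capillary and venous endothelium that was not in the list, had 5.16, 6.83 and 7.796 FPKM in soman libraries, against 3.71, 3.61 and 3.302 FPKM in saline libraries (log2 change 0.73 ± 0.12 (SE), adjusted p = 0.00041) and passed in all 6 fits. Of 12 genes of oligodendrocyte progenitors and 11 of ependyma, 1 rose in each.

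Several of these glial and endothelial calls rested on single libraries. Cnp lost its call without soman replicates 2 or 3 or any saline replicate, with adjusted p from 0.063 to 0.49. Sox9 lost it without soman replicate 3 or saline replicate 2 (adjusted p = 0.24 and 0.11). Agt lost it without any library other than saline replicate 2 (adjusted p from 0.074 to 0.15). Besides soman replicate 3, Cdh5 lost it without soman replicate 2 or saline replicate 3 (adjusted p from 0.083 to 0.098), Eng without soman replicate 2, saline replicate 2 or saline replicate 3 (adjusted p from 0.082 to 0.27), and Vwf without any saline replicate (adjusted p from 0.057 to 0.26).

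More clock genes fell than rose. Of 18 tested, 6 fell and 1 rose, where 15.3% of all genes tested fell and 4.23% rose. Under median-ratio scaling 4 clock genes fell and 1 rose. Cry2, a repressor of the clock, had 24.1, 19.8 and 20.6 FPKM in soman libraries, against 27.97, 29.02 and 28.7 FPKM in saline libraries (log2 change -0.397 ± 0.08 (SE), adjusted p = 0.0014). Nfil3, a repressor of clock output, had 2.87, 2.004 and 1.51 FPKM in soman and 3.85, 3.67 and 4.02 FPKM in saline (log2 change -0.65 ± 0.13 (SE), adjusted p = 0.0017). With Per1, given above, these 2 passed in all 6 fits without 1 library. Nr1d1, which encodes REV-ERB alpha, rose with 30.9, 37.2 and 48.9 FPKM in soman and 26.1, 27.6 and 26.7 FPKM in saline (log2 change 0.4997 ± 0.12 (SE), adjusted p = 0.0069), and lost the call without soman replicate 3 (adjusted p = 0.12). The hour of sampling is not stated in the labels for any group. Of 15 glucocorticoid-responsive genes 5 fell and 1 rose, the last being Mt1, a metallothionein (log2 change 0.49 ± 0.12 (SE), adjusted p = 0.0061), which did not pass without soman replicate 3 (adjusted p = 0.068).

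Interferon-stimulated genes were lower in part. Of 20 tested, 5 fell and 0 rose, where 15.3% of all genes tested fell and 4.23% rose. Under median-ratio scaling 4 fell, and without soman replicate 3 the count was 0. Ifi27 had 15.3, 12.7 and 6.04 FPKM in soman libraries and 20.5, 18.6 and 18.8 FPKM in saline libraries (log2 change -0.803 ± 0.19 (SE), adjusted p = 0.0055). Bst2, the virus-tethering protein, had 2.75, 3.06 and 1.94 FPKM in soman and 4.02, 8.79 and 5.78 FPKM in saline (log2 change -0.96 ± 0.24 (SE), adjusted p = 0.0074), and saline replicate 2 held its highest value. Without soman replicate 3 the adjusted p was 0.10 for Ifi27 and 0.073 for Bst2, and without saline replicate 2 it was 0.060 for Bst2. Of 22 genes of antigen presentation 0 passed. Of 7 haemoglobin and erythroid genes 2 fell, the near-identical beta globins Hbb-bs and Hbb-bt, between which reads can be split. Hbb-bs had 220.0, 131 and 68.6 FPKM in soman and 301, 257 and 283 FPKM in saline (log2 change -1.15 ± 0.39 (SE), adjusted p = 0.037). Neither globin passed under median-ratio scaling, nor without soman replicate 2 or 3 or any 1 saline replicate (for Hbb-bs, adjusted p from 0.064 to 0.32), and the labels do not say whether blood was washed out of the brains.

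Among markers of brain regions, 1 of 19 cerebellar and 1 of 21 cortical and hippocampal genes were lower, where 15.3% of all genes tested fell. Higher were 2 of 18 striatal and 3 of 22 thalamic, hypothalamic and brainstem genes, where 4.23% of all genes tested rose. The median log2 change was -0.03 for 18 striatal genes, -0.03 for 21 genes of cortical and hippocampal excitatory neurons, -0.11 for 19 cerebellar genes and 0.05 for 22 genes of thalamus, hypothalamus and brainstem. Itpr1, the calcium release channel that Purkinje cells hold in excess, had 103, 90.7 and 77.3 FPKM in soman libraries, against 166, 144 and 155 FPKM in saline libraries, with no overlap (log2 change -0.78 ± 0.21 (SE), adjusted p = 0.012). It was the cerebellar gene that passed, and it lost the call without soman replicate 3 (adjusted p = 0.096). Drd2, the dopamine receptor of indirect-pathway striatal neurons, had 12.5, 11.6 and 16.2 FPKM in soman and 10.2, 8.63 and 9.99 FPKM in saline (log2 change 0.44 ± 0.12 (SE), adjusted p = 0.014), and lost the call without soman replicate 3 or saline replicate 2 (adjusted p = 0.16 and 0.066). Of 24 neuropeptide genes 1 rose and 0 fell. Between doses the cerebellar list had a median of 0.34 at 1/10 against 1/5 LD50, with 0 of 19 called, and of 1.10 at 1/10 against 1/2 LD50, with 0 of 19 lower and 4 higher, among them Zic1 and Zic2. Of all genes tested, 4.11% were higher at 1/10 than at 1/2 LD50. None of the 19 cerebellar genes passed against 1/2 LD50 without soman replicate 2, soman replicate 3 or replicate 1 of 1/2 LD50. In the last of these fits the list median was 0.58.

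The largest rises among named nuclear genes were of small and noncoding RNAs, whose values depend on how poly(dT) beads retained them. Rn7sk, the 7SK RNA that restrains transcription elongation, had 3.51, 8.79 and 7.47 FPKM in soman libraries and 1.34, 2.23 and 1.15 FPKM in saline libraries (log2 change 1.51 ± 0.38 (SE), adjusted p = 0.0077). Bc1, a dendritic RNA of neurons, had 4.003, 4.84 and 2.82 FPKM in soman and 2.58, 0.0844 and 0 FPKM in saline (log2 change 1.62 ± 0.58 (SE), adjusted p = 0.048). Snord4a, a small nucleolar RNA, had 5.06, 4.94 and 6.94 FPKM in soman and 1.73, 3.23 and 2.64 FPKM in saline (log2 change 0.92 ± 0.26 (SE), adjusted p = 0.013). The soman libraries of all 3 lay above the saline libraries, though saline replicate 1 came close for Bc1. Without soman replicate 3 the adjusted p was 0.059 for Rn7sk, 0.11 for Bc1 and 0.11 for Snord4a. Bc1 also lost the call without soman replicates 1 or 2 or saline replicates 2 or 3 (adjusted p = 0.059, 0.13, 0.16 and 0.19), and Snord4a without saline replicate 1 (adjusted p = 0.072).

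Among protein-coding rises, Tmsb10, an actin-sequestering peptide, had 107, 109 and 152 FPKM in soman libraries and 71.8, 61.6 and 69.6 FPKM in saline libraries (log2 change 0.83 ± 0.19 (SE), adjusted p = 0.0038). Ccl27b, a chemokine gene with near-identical copies, had 14.99, 15.3 and 16.2 FPKM in soman and 8.52, 7.39 and 8.84 FPKM in saline (log2 change 0.84 ± 0.24 (SE), adjusted p = 0.017). In both genes all soman libraries exceeded all saline libraries. Ube2d1, a ubiquitin-conjugating enzyme, had 24.7, 38.6 and 55.03 FPKM in soman and 24.6, 22.1 and 24.2 FPKM in saline (log2 change 0.65 ± 0.14 (SE), adjusted p = 0.0031), and its soman replicate 1 was just above the saline range. The adjusted p without soman replicate 3 was 0.054 for Tmsb10, 0.087 for Ccl27b and 0.058 for Ube2d1, and without saline replicate 2 it was 0.059 for Ccl27b. Cthrc1, Cetn4 and St6galnac2 rose as well, with log2 changes of 0.91, 0.74 and 0.65, and each lost the call without soman replicate 3 (adjusted p = 0.12, 0.14 and 0.13), Cthrc1 also without soman replicate 2, saline replicate 1 or saline replicate 3 (adjusted p = 0.066, 0.15 and 0.069).

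The largest falls after Arc were of diverse genes. Atp8a2, a flippase that keeps phosphatidylserine on the inner side of neuronal membranes, had 7.85, 5.91 and 4.596 FPKM in soman libraries, against 11.8, 13.1 and 12.7 FPKM in saline libraries (log2 change -0.95 ± 0.13 (SE), adjusted p = 0.00013). Oip5os1, a noncoding RNA also called Cyrano, had 35.4, 28.8 and 18.5 FPKM in soman and 53.5, 50.9 and 58.5 FPKM in saline (log2 change -0.998 ± 0.14 (SE), adjusted p = 0.00017). Both passed in all 6 fits without 1 library, and their groups did not overlap. Neither passed the test against the higher doses of day 7. Oip5os1 averaged 27.6 ± 8.51 FPKM at 1/10 LD50, 27.6 ± 1.59 FPKM at 1/5 LD50 and 31.8 ± 5.81 FPKM at 1/2 LD50 (adjusted p = 0.84 and 0.26, and for Atp8a2 0.52 and 0.21). Tmem160, a short transcript of a mitochondrial membrane protein, had 18.4, 9.77 and 3.77 FPKM in soman and 23.1, 19.1 and 18.8 FPKM in saline (log2 change -1.09 ± 0.23 (SE), adjusted p = 0.0025), and its soman replicate 1 lay close below the saline libraries. Prss56, a serine protease, had 3.21, 2.87 and 1.297 FPKM in soman and 5.94, 6.53 and 6.75 FPKM in saline (log2 change -1.15 ± 0.38 (SE), adjusted p = 0.034). Prss56 lost the call without soman replicates 2 or 3 or any saline replicate (adjusted p from 0.055 to 0.23).

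Over all genes, 844 were higher and 3212 lower at 1/10 than at 1/5 LD50 on day 7, and 604 were higher and 1993 lower at 1/10 than at 1/2 LD50. After median-ratio scaling the splits were 2012 higher and 1952 lower, and 1304 higher and 1406 lower. With the nuclear sum rescaled the majority turned, with 2511 higher and 1621 lower than at 1/5 LD50, and 1522 higher and 1204 lower than at 1/2 LD50. Against 1/5 LD50 these scalings moved the median of all genes by 0.102 and 0.13 on the log2 scale. With soman replicate 1 as the lone 1/10 LD50 library, 1 was higher and 7 were lower than at 1/5 LD50, and 2 were higher and 4 lower than at 1/2 LD50. Without soman replicate 2 the total against 1/2 LD50 was 1501, and without soman replicate 1 it was 4875. Without soman replicate 3 the totals were 1509 against 1/5 LD50 and 226 against 1/2 LD50. Without replicate 3 of 1/5 LD50 the total was 2546, and without replicate 1 of 1/2 LD50 it was 648. These comparisons share the 3 soman libraries at 1/10 LD50 with the comparison against saline.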

How the data were processed

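Per the labels' protocols, RNA of mouse brain was purified in Trizol, poly(dT) beads selected it, and cDNA came from a SmartScribe kit. The submitters' processing notes name HISAT2 and the human build GRCh38 for these mouse libraries, so no coordinates were taken from the files. The deposited table holds FPKM per gene for 39 libraries, computed by the authors. The step from alignment to FPKM is not given in the sources used here. Counts and depth are unknown, and whole reads could not be recovered from the values, since 1.02% of 6103 low genes shared the commonest ratio between libraries.

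Genes at 1 FPKM or more in at least 3 of the 39 libraries (14701) were tested with limma 3.58.1 in R 4.3.3 on log2(FPKM + 1). All 13 groups entered 1 linear model, and eBayes used a mean-variance trend. P-values were adjusted by Benjamini-Hochberg over all genes tested, with a threshold of 0.05. Fold changes are on that scale, which understates changes of low genes. P-values rest on a spread pooled over the 39 libraries of all 13 groups, not on the 6 libraries compared by themselves. The soman group varied more than that of saline. Over nuclear genes of 5 FPKM or more, the SD of the log2 difference between replicates 3 and 1 was 0.42 in the soman group. It was 0.22 at 1/5 LD50, 0.29 at 1/2 LD50 and 0.17 in saline. The procedure was also run on simulated data with independent libraries and the same spread per gene in all groups. That setting lacks the larger spread of the soman group and the libraries that lie between others of their group. It is therefore no check of the counts given here. No label gives a batch.

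The members and all 46 gene lists were chosen with earlier results of these data known. The naming rule takes genes past the threshold with at least 2 FPKM on average in either group and a symbol of no predicted locus. Of those with all soman libraries on 1 side of all saline libraries it takes the 12 largest nuclear rises and falls and the 6 largest each way that also pass without any 1 library and with soman replicate 1 alone. Against each other dose it takes the 4 largest each way. It adds, without these conditions, up to 4 calls of smallest p per list with at least 2 calls, Ache, Bche, Chat and the 13 mitochondrial mRNAs. Some genes that the rule gives are not reported here. Other list members were named after their values were seen. Fits with 1 soman library take its spread from the other groups. Alternatives were no filter, a 0.1 pseudocount, scaling by median ratios, a nuclear sum without the mitochondrial genome, the compared groups alone, a replicate block, the mitochondrial share as covariate, library weights (arrayWeights, gene by gene), libraries left out and the length trend removed. Lengths came from GENCODE vM21 and covered 96.07% of genes. The fits of soman library 2 alone and of soman library 3 alone were added after seeing the data. Promoters came from RefSeq, build GRCm38.p6.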

Additional observations from a re-analysis of the deposited data

Results flagged for a closer look

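Direct tests between doses of day 7 set several genes apart, each with a level at 1/10 LD50 that differed from that at another dose. Against 1/5 LD50, with limma over all genes, the log2 differences were 1.65 for Bc1 (adjusted p = 0.033), 1.14 for Rn7sk (adjusted p = 0.026) and 0.83 for Tlr3, a sensor of double-stranded RNA (adjusted p = 0.029). Lower at 1/10 than at 1/5 LD50 were Gh, the pituitary growth hormone, at -2.89 (adjusted p = 0.025), Arc at -2.08 (adjusted p = 1.9e-06), Stab2 at -1.92 (adjusted p = 0.045) and Lsm5 at -1.70 (adjusted p = 0.019).

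Against 1/2 LD50 the log2 differences were 1.96 for Tpm3-rs7 (adjusted p = 0.032), 1.84 for Gdf1 (adjusted p = 0.027), and 1.42 and 1.10 for the cerebellar granule cell factors Zic1 and Zic2 (adjusted p = 0.023 and 0.027). Lower at 1/10 than at 1/2 LD50 were Gh at -3.67 (adjusted p = 0.011), Arc at -2.07 (adjusted p = 4.1e-06), Rpl26 at -1.75 (adjusted p = 0.0498) and Myo1h at -1.67 (adjusted p = 0.024). Both Zic genes belong to the cerebellar list, whose median difference at 1/10 from 1/2 LD50 was 1.10, and the part of that list in these differences was not tested. Zic1 had 31.4, 31.7 and 39.4 FPKM at 1/10 LD50 and averaged 13.4 ± 6.701 FPKM at 1/2 LD50. Rpl26 had 144, 6.02 and 171 FPKM at 1/10 LD50, so that soman replicate 2 alone was low, and without it the log2 difference was -0.25 (adjusted p = 0.67). Gh was listed at 0 in soman replicates 1 and 2 at 1/10 LD50 and had 1.41 FPKM in replicate 3. Both differences of Arc and that of Gh against 1/2 LD50 also passed with the mitochondrial share as a covariate, and with soman replicate 1 alone those of Arc passed and the others did not.

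Of these 15 differences, those of Arc alone passed in every fit that left out 1 library of the groups compared. With the compared groups alone in the model neither difference of Arc passed (adjusted p = 0.13 against 1/5 LD50 and 0.069 against 1/2 LD50), whereas those of Gdf1 and Myo1h did (adjusted p = 0.024 and 0.0086). Against 1/5 LD50, the calls of Rn7sk and Lsm5 were lost without replicates 2 or 3 of 1/10 LD50 or replicate 3 of 1/5 LD50 (adjusted p from 0.11 to 0.13 and from 0.083 to 0.13). Tlr3 lost it without replicates 1 or 3 of 1/10 LD50 or replicate 3 of 1/5 LD50 (adjusted p from 0.058 to 0.23). Bc1 and Stab2 lost it without any library other than replicate 2 of 1/5 LD50 (adjusted p from 0.051 to 0.15 and from 0.063 to 0.19), and Gh without replicates 1 or 2 of 1/10 LD50 or replicates 2 or 3 of 1/5 LD50 (adjusted p from 0.052 to 0.11). Against 1/2 LD50, Gh lost the call without replicate 3 of 1/2 LD50 (adjusted p = 0.061). Zic1, Zic2 and Myo1h lost it without replicates 2 or 3 of 1/10 LD50 or replicate 1 of 1/2 LD50 (adjusted p from 0.051 to 0.19, from 0.071 to 0.20 and from 0.068 to 0.10). Gdf1 lost it without replicates 2 or 3 of 1/10 LD50 or replicates 1 or 2 of 1/2 LD50 (adjusted p from 0.063 to 0.11), Tpm3-rs7 without replicate 3 of 1/10 LD50 or replicates 1 or 3 of 1/2 LD50 (adjusted p from 0.14 to 0.19), and Rpl26 also without any replicate of 1/2 LD50 (adjusted p from 0.059 to 0.15).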

How the results depend on the processing

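Of 2866 genes called against saline, the count was 5 with the compared groups alone, 1 with the mitochondrial share as covariate, 7208 with library weights, 4 with soman replicate 1 alone, 69 without the 7 libraries that lie between others of their group, 1896 with soman library 2 alone and 5615 with soman library 3 alone. Unadjusted p was under 0.05 for 2484 genes with the compared groups alone, 1529 with the covariate and 1616 with soman replicate 1 alone. Leaving out 1 library gave 668 to 5304. Of 4056 genes called against 1/5 LD50, the same settings gave 0 with the compared groups alone (limma, 3138 at an unadjusted p under 0.05), 239 with the covariate, 7035 with weights, 8 with soman replicate 1 alone and 2159 without the 7 libraries, and leaving out 1 library gave 1509 to 5707. Of 2597 against 1/2 LD50 they gave 2, 192, 6108, 6 and 282, and leaving out 1 library gave 226 to 4875. Pseudocount, filter, scaling, nuclear sum and length kept these counts within 1.5 times, though both scalings changed the split of higher and lower genes.

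Replicate numbers did not pair the samples, since deviations of same-numbered libraries correlated at -0.02, -0.07 and 0.02 between soman and saline, and with the replicate block 2799, 4001 and 2549 genes were called. Among 3025 comparisons of 162 single-gene results that the naming rule gives with alternatives, 33 changed sign and none of those passed the threshold. With the covariate the log2 changes became 0.049 for Pnpla6, -0.054 for mt-Rnr2, 0.033 for Ndufv1, 0.021 for Cyc1, 0.0069 for Polg, 0.052 for Gad1, 0.12 for Cnp, 0.11 for Insig1, 0.053 for H2az1, 0.18 for Ache, -0.0032 for ND4, -0.055 for ND3, -0.046 for ND4L, -0.0030 for ND2, -0.040 for COX3 and -0.064 for CYTB. With soman replicate 1 alone they became 0.091 for Ndufv1, 0.21 for Ndufb2, 0.10 for Cyc1, 0.015 for Polg, 0.043 for Gad1, 0.12 for Txn1, 0.031 for Psmb7, 0.065 for H3f3a, 0.13 for H2az1, 0.23 for Snhg8, -0.016 for Snap25 and 0.060 for Ache. Chat had -0.031 without the 7 libraries, -0.065 without soman replicate 1, -0.11 without soman replicate 2, 0.26 without soman replicate 3, -0.049 without saline replicate 1 and -0.43 with soman library 3 alone. For transcripts of the mitochondrial genome, the covariate is summed from their own values. The cause of the changes of sign was not tested. The call was lost for 153 of 158 with the compared groups alone, and, of the 162, for 147 without the 7 libraries, 146 with soman replicate 1 alone, 141 with the covariate, 98 without soman replicate 3, 53 without soman replicate 2 and 7 without soman replicate 1. Depth is unknown, so no limit of detection is given.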
